A study of Mus musculus with 6 samples.

Results

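Voltage-gated sodium channel subunits are the subject here, as measured in mouse sciatic nerve. Their members were the 9 genes Scn1a, Scn2a1, Scn3a, Scn7a, Scn8a, Scn9a, Scn2b, Scn3b and Scn4b, taken by symbol from the probes that are not array controls. These 9 are among 30325 gene names on the array, and 18 of its 39429 probes carry their symbols. Of these genes, 6 encode pore-forming alpha subunits and the other 3 encode beta subunits. Scn2a1 is called Scn2a in RefSeq, and the symbol of the array is kept below.

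The comparison set 3 pools against 3, with 1 array for each pool. The Ctrl pools came from littermate control mice and the OGT_SCKO pools from mice in which Ogt, the enzyme that attaches O-GlcNAc to proteins, was knocked out, all aged 1 month and described as of C56 BL6 background. No injury or drug is named for either group. SCKO is read here as a Schwann cell knockout, which follows from the series title. The Cre driver, and how many animals made up a pool, are not given in the sources used here. The p-values measure the spread between these pools.

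A voltage-gated sodium channel is a large alpha subunit that forms the pore, usually joined by 1 or more small beta subunits that alter gating and bind adhesion molecules and the extracellular matrix. In myelinated nerve these channels are packed at the nodes of Ranvier, where Scn8a supplies the main adult alpha subunit and Scn2a1 the one of immature nodes and unmyelinated axons. Most of that protein is made in neuronal cell bodies outside the nerve and carried down the axon, so transcripts in the nerve itself can come from axons, Schwann cells, fibroblasts, vessels or adhering muscle. In such bulk tissue, fewer cells of a type and less RNA per cell cannot be told apart.

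Each probe is a 60-base oligonucleotide, and the signal of a gene is that of the probe rather than of the whole transcript. The probes below are shown because the Scn2a1 and Scn8a results turn on which one is read, and Scn7a and Scn1a give 2 alpha subunits that did not pass the test for comparison. They are printed 5′ to 3′ as the array's design has them, on positions of build mm9.
Scn2a1 A_55_P2106514: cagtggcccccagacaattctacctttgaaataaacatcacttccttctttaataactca
Scn8a A_55_P2072333: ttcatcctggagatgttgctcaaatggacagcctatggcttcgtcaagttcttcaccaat
Scn7a A_52_P353478: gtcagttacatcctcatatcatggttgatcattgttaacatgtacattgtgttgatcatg
Scn1a A_55_P2138769: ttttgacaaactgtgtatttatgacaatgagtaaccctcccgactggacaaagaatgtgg
The Scn2a1 probe lies at chr2:65521868-65521927 on the plus strand and the Scn8a probe at chr15:100848863-100848922 on the plus strand. The Scn7a probe is at chr2:66514113-66514172 and the Scn1a probe at chr2:66173498-66173557, both on the minus strand. Exon and UTR annotation of mm9 was not used here. Whether these probes also take signal from related alpha subunits was not tested.

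Values are log2 of the background-subtracted spot signal minus log2 of the same array's 75th percentile, so that 0 marks a probe at that percentile. A probe entered the test if every array of either group had it well above background, and a gene took its brightest such probe, by the mean of the 6 arrays. The fit was limma's, with Benjamini-Hochberg adjustment over all 19058 genes or, for single probes, over all 24287 probes that passed. A change was called at an adjusted p under 0.05.

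Of the 9 sodium channel genes, 7 could be tested, 2 fell in OGT_SCKO nerve (Scn2a1, and Scn8a on 1 of its 2 tested probes) and none rose. Scn3a and Scn9a stayed at background. Calls made up 28.6% of the 7 tested genes, against 23.3% of all genes tested, so the share of calls is near the background. Of all genes tested, 12.1% were called lower and 11.2% higher. The log2 differences ran negative in 6 of the 7, with a median of −0.47 beside −0.07 over all genes tested. That median is the value of Scn1a, which was not called (limma adjusted p = 0.294), and it depends on the probe taken for Scn8a. The share of negative differences over all genes was not counted, so these numbers are not read as a result about the family. Of the 10 tested probes, 9 were well above background on all arrays, and 3 of these were called, all lower in OGT_SCKO. The remaining probe passed the filter through its Ctrl values alone and has only a bound. Of all probes tested, 23.5% were called, 12% lower and 11.6% higher.

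**Figure D1:**
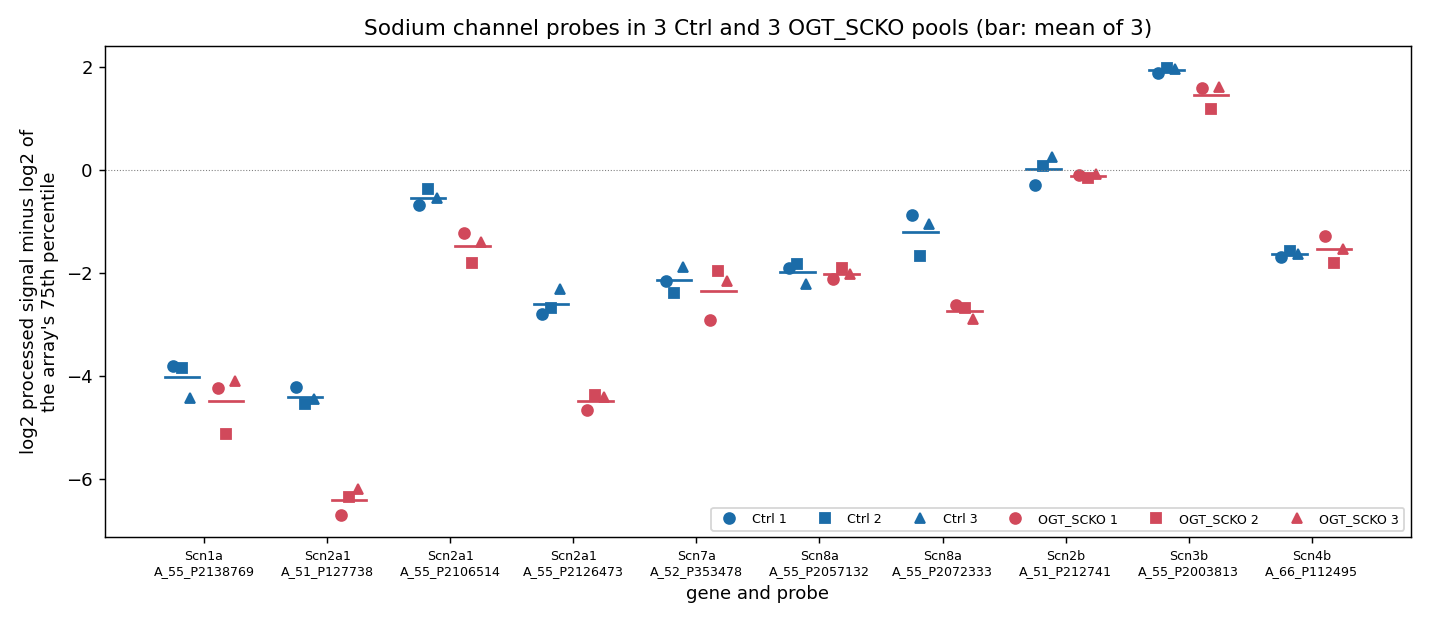
Level of each tested sodium channel probe in every pool, as log2 processed signal minus log2 of the array's 75th percentile, with Ctrl pools in blue, OGT_SCKO pools in red and a bar at the mean of 3. The groups are apart in all 3 Scn2a1 probes, in Scn8a A_55_P2072333 and in Scn3b, and overlap in the other 5 probes. The OGT_SCKO values of Scn2a1 A_51_P127738 are at background. How many of all probes on the array are apart was not counted, so these numbers are not read as a result. Heights of different probes are not comparable with each other.

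The knockout itself was visible on the arrays. The higher Ogt probe read 0.46, 0.35 and 0.11 in Ctrl pools 1 to 3, and −0.89, −1.01 and −1.01 in OGT_SCKO pools 1 to 3. All OGT_SCKO pools were below all Ctrl pools. Ogt was at 41.3% of the Ctrl level (log2 change −1.28, SE 0.13, limma adjusted p = 0.00117), in a tissue that also holds cells other than Schwann cells. The labels do not say whether this probe lies in the deleted stretch of Ogt. The 75th percentile of signal ran from 2749 to 6136 between arrays, 58.9% to 65.2% of probes stood well above background and no spot was saturated. Slide 1 carried Ctrl pool 2 and all 3 OGT_SCKO pools, and slide 2 carried Ctrl pools 1 and 3, so only slide 1 holds both groups.

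Among the alpha subunits, Scn2a1 (the Nav1.2 channel) was lower in OGT_SCKO on each of its probes that was above background on all arrays. Its remaining probe, A_51_P127738, passed the filter through its Ctrl values alone and gives only a bound. The probe with the highest signal, A_55_P2106514, read −0.68, −0.37 and −0.55 in the Ctrl pools and −1.22, −1.80 and −1.39 in the OGT_SCKO pools. All OGT_SCKO pools lay below all Ctrl pools. The means were −0.53 ± 0.16 and −1.47 ± 0.30 (SD, n = 3 each), a log2 change of −0.94 (SE 0.18, 95% interval −1.36 to −0.51, limma adjusted p = 0.0125). That is 1.91-fold lower, or 52.3% of the Ctrl level.

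The other Scn2a1 probes lie further along the plus strand. A_55_P2126473, at chr2:65605429-65605488, read −2.81, −2.69 and −2.31 in Ctrl and −4.67, −4.38 and −4.42 in OGT_SCKO. The groups were well apart, and the probe fell by 1.89 on the log2 scale (SE 0.16, limma adjusted p = 0.00065 over probes), to 27.0% of the Ctrl level. A_51_P127738, at chr2:65603503-65603562 and spotted 10 times per array, read −4.23, −4.55 and −4.44 in Ctrl. In OGT_SCKO it read −6.70, −6.36 and −6.21 and was not well above background in any of the 3 pools. For that probe only a bound holds: Scn2a1 signal was at least 1.98-fold lower, the Ctrl mean being set against the lowest level measurable on each OGT_SCKO array. The adjusted p of the limma fit, 0.000514, was computed on OGT_SCKO signals at background and is not read as support.

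The 2 Scn2a1 probes that were above background on all arrays gave drops of different size. Within an array, A_55_P2126473 minus A_55_P2106514 was −2.12, −2.32 and −1.76 in Ctrl and −3.45, −2.58 and −3.03 in OGT_SCKO. The OGT_SCKO pools were all lower, by 0.95 on average, so the downstream probe lost more signal than the upstream one. An exact two-sided permutation test gave p = 0.1, the smallest value that 3 against 3 pools allow. The gap between them was smaller under another background correction (normexp), where A_55_P2106514 changed by −0.86 (limma adjusted p = 0.0462 over probes) and A_55_P2126473 by −1.10 (adjusted p = 0.0514, no longer called). There A_51_P127738 stood at −0.53 (adjusted p = 0.397), less than the upstream probe, a value that also rests on its OGT_SCKO signal at background.

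Within slide 1, which sets Ctrl pool 2 alone against the 3 OGT_SCKO pools, both probes were again lower. In such a fit only the OGT_SCKO pools give a spread, and the lone Ctrl pool is assumed to vary like them; this holds for every value within slide 1 below. The log2 difference was −1.10 for A_55_P2106514 (limma adjusted p = 0.139 over probes) and −1.80 for A_55_P2126473 (adjusted p = 0.0294). With slide as a fixed block the same differences had adjusted p = 0.0592 and 0.0160. As a gene, represented by A_55_P2106514, Scn2a1 also lost its call without Ctrl pool 3 (limma adjusted p = 0.0511) and with the replicate block (adjusted p = 0.0731).

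Scn8a, the Nav1.6 channel of mature nodes, gave 2 different answers. Probe A_55_P2072333 read −0.87, −1.67 and −1.05 in Ctrl and −2.62, −2.68 and −2.89 in OGT_SCKO. The groups did not overlap, and Ctrl pool 2, the Ctrl pool on the slide of the OGT_SCKO arrays, was the nearest to them. The means were −1.20 ± 0.42 and −2.73 ± 0.14 (SD, n = 3 each). The log2 change was −1.53 (SE 0.22, 95% interval −2.06 to −1.01, limma adjusted p = 0.00486), which is 2.89-fold lower or 34.6% of Ctrl.

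The second tested Scn8a probe, A_55_P2057132 at chr15:100875702-100875761, lies downstream of the first and holds a GT repeat of 16 bases. It read −1.91, −1.83 and −2.21 in Ctrl and −2.12, −1.90 and −2.02 in OGT_SCKO. These values overlapped throughout, with a log2 difference of −0.03 (SE 0.14, 95% interval −0.36 to 0.30, limma adjusted p = 0.896). The third Scn8a probe, A_55_P2072339 at chr15:100766904-100766963, was well above background in only 1 of 3 Ctrl and 2 of 3 OGT_SCKO pools and was not tested.

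The disagreement between the tested Scn8a probes was itself larger than the spread between pools. A_55_P2072333 minus A_55_P2057132 was 1.04, 0.15 and 1.16 in Ctrl and −0.50, −0.78 and −0.87 in OGT_SCKO. That difference moved by −1.50 with no overlap of the groups (exact permutation p = 0.1, the smallest possible).

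The Scn8a call belongs to probe A_55_P2072333 rather than to the gene. On the gene level the choice of probe decided it, because both probes had nearly the same mean over all 6 arrays. Without Ctrl pool 1 the rule took A_55_P2057132 and the Scn8a difference became 0.01 (limma adjusted p = 0.976). Without Ctrl pool 3 it was −0.14 (adjusted p = 0.498), again on A_55_P2057132. The mean of both probes fell by 0.78 (adjusted p = 0.00726). Probe A_55_P2072333 on its own was called in 16 of the 17 alternatives run on it, the exception being slide 1 alone (−1.06, adjusted p = 0.0914); with slide as a fixed block the adjusted p was 0.0327.

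**Figure D2:**
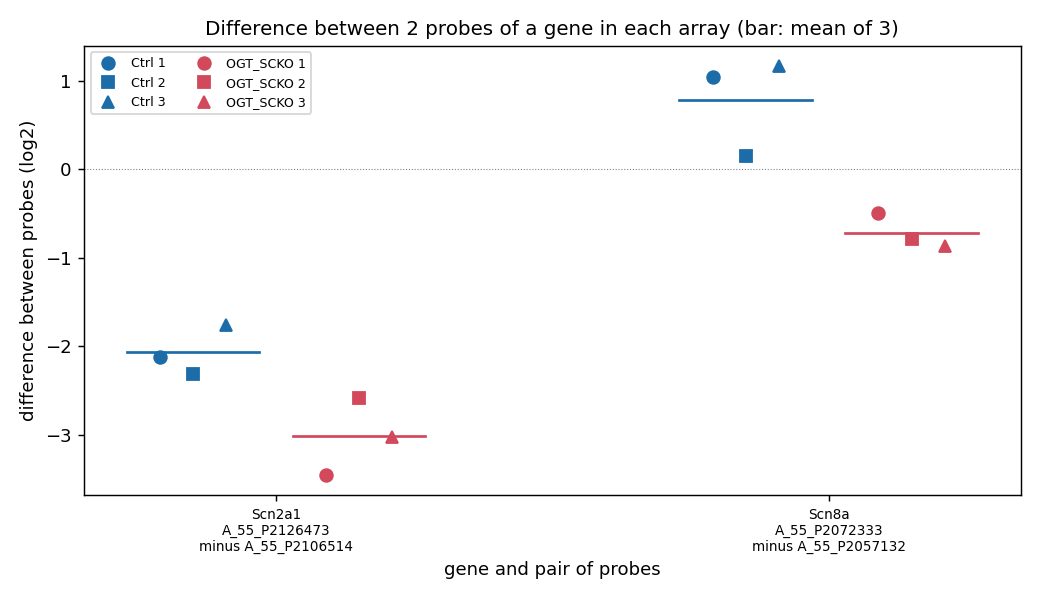
Difference in log2 signal between 2 probes of the same gene on the same array, for 1 pair of Scn2a1 probes and 1 pair of Scn8a probes that were above background on all arrays, with a bar at the mean of 3 pools. The Scn8a difference is above 0 in every Ctrl pool (0.15 to 1.16) and below 0 in every OGT_SCKO pool (−0.87 to −0.50), and the Scn2a1 difference is lower in every OGT_SCKO pool (−3.45 to −2.58) than in any Ctrl pool (−2.32 to −1.76).

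The other alpha subunits did not pass the test or were not measurable. Scn1a (Nav1.1, carried by sensory and motor axons) read −3.80, −3.84 and −4.42 in Ctrl and −4.24, −5.14 and −4.10 in OGT_SCKO on A_55_P2138769. The groups overlapped, and the log2 difference of −0.47 has a 95% interval from −1.21 to 0.27 (limma adjusted p = 0.294), so neither a drop of about the Scn2a1 size nor no change at all lies outside it. A second Scn1a probe, A_55_P2138761 at chr2:66111022-66111081, stood well above background in 1 Ctrl pool and no OGT_SCKO pool.

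Scn7a encodes the atypical channel Nax, which senses sodium and is a known product of Schwann cells. It read −2.15, −2.39 and −1.87 in Ctrl and −2.92, −1.96 and −2.15 in OGT_SCKO. OGT_SCKO pool 1 was the lowest of all and the other 2 lay within the Ctrl range. The difference was −0.21 (SE 0.27, 95% interval −0.85 to 0.44, limma adjusted p = 0.601) and changed sign without OGT_SCKO pool 1 (0.08). Within slide 1 it was 0.05 (adjusted p = 0.951).

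Scn3a, the embryonic channel Nav1.3, is covered by 5 probes and Scn9a, the Nav1.7 channel of pain-sensing neurons, by 1 probe at chr2:66321218-66321277. None of these 6 probes was well above background in any of the 6 pools. The Scn3a probes read between −7.93 and −6.04 and the Scn9a probe between −7.90 and −6.77, which is too low to compare the groups.

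**Figure D3:**
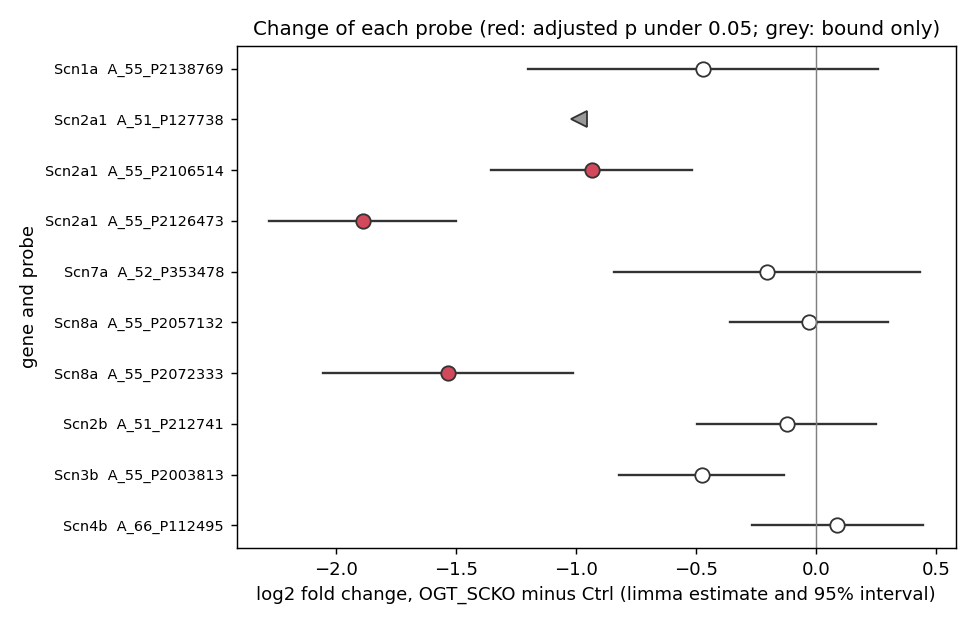
Log2 change from Ctrl to OGT_SCKO for each tested sodium channel probe, with the 95% interval of the limma fit and red points where the adjusted p over all probes is under 0.05. The red points are Scn2a1 A_55_P2106514 (−0.94), Scn2a1 A_55_P2126473 (−1.89) and Scn8a A_55_P2072333 (−1.53), and the grey arrowhead is the bound of Scn2a1 A_51_P127738 (−0.99 or lower); the interval of Scn8a A_55_P2057132 is centred near 0.

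The beta subunits showed smaller differences and none was called. Scn3b, whose product is a beta subunit held to the channel without a disulphide bond, came closest. It read 1.89, 1.98 and 1.96 in Ctrl and 1.61, 1.18 and 1.61 in OGT_SCKO, on A_55_P2003813 at chr9:40098873-40098932. The groups did not overlap, and OGT_SCKO pool 2 was the lowest. The log2 difference was −0.48 (SE 0.14, 95% interval −0.82 to −0.13), or 1.39-fold lower, with a limma adjusted p = 0.0572. It passed the threshold under 3 of 18 alternatives, namely median scaling (adjusted p = 0.0468), slide as a random block (0.0398) and a variance model with trend and robust settings (0.0331). Within slide 1 the difference was −0.51 (adjusted p = 0.339).

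Scn2b and Scn4b encode the beta subunits that are bound to the alpha subunit by a disulphide bond, and are neighbours on chromosome 9. Scn2b read −0.30, 0.08 and 0.26 in Ctrl and −0.09, −0.15 and −0.08 in OGT_SCKO. The OGT_SCKO pools fell inside the Ctrl range, with a difference of −0.12 (SE 0.16, 95% interval −0.50 to 0.25, limma adjusted p = 0.592). Scn4b, the subunit linked to resurgent sodium current, read −1.69, −1.56 and −1.63 in Ctrl and −1.29, −1.80 and −1.53 in OGT_SCKO. Here the Ctrl pools fell inside the OGT_SCKO range, with a difference of 0.09 (SE 0.15, 95% interval −0.27 to 0.45, limma adjusted p = 0.690). The intervals of both genes leave out a change as large as that of Scn2a1 probe A_55_P2106514.

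**Figure D4:**
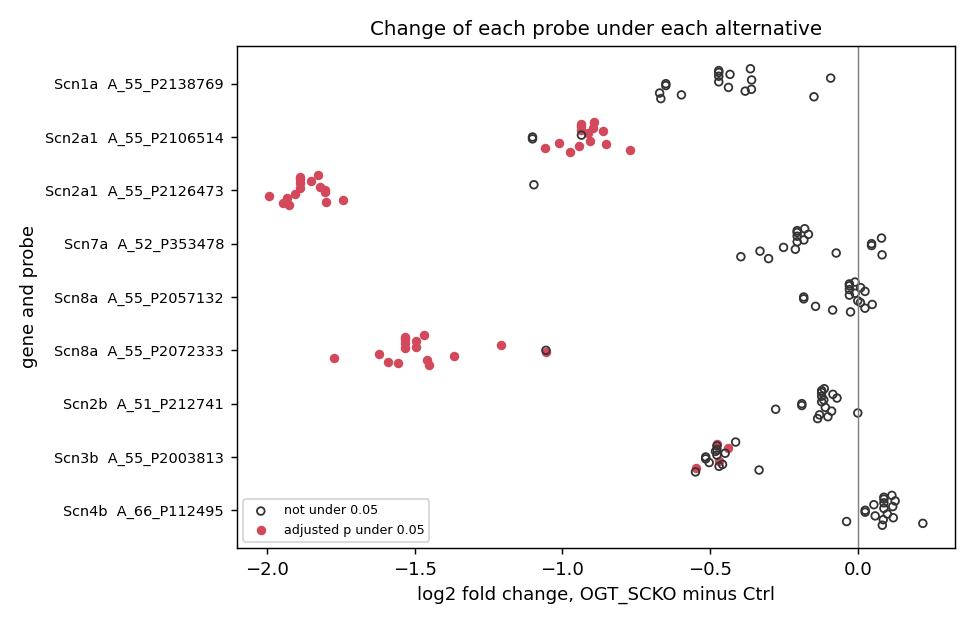
Log2 change of each probe above background on all arrays, under each alternative processing, filled where the adjusted p is under 0.05. Scn2a1 A_55_P2106514 (−1.10 to −0.77), Scn2a1 A_55_P2126473 (−1.99 to −1.10) and Scn8a A_55_P2072333 (−1.77 to −1.06) stay below 0, while Scn7a, Scn8a A_55_P2057132 and Scn4b cross it.

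The members of chromosome 2 were compared with the genes that lie between them, which were chosen after the values were seen. In RefSeq order the cluster runs Scn3a, Scn2a, Csrnp3, Galnt3, Ttc21b, Scn1a, Scn9a and Scn7a. The 3 genes in between had log2 differences of 0.14 for Csrnp3 (limma adjusted p = 0.473), 0.48 for Galnt3 (adjusted p = 0.130) and 0.21 for Ttc21b (adjusted p = 0.486). None of these was called. Scn3a and Scn9a were not tested, and of the tested genes in the cluster Scn2a1 alone was called, where 23.3% of all genes tested were.

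The title of the series names the AP-1 factor JUN, so the windows of 300 bases around the RefSeq starts (GRCm38.p6) were searched on both strands for the AP-1 letters TGANTCA. The table held 9 windows for 7 of the member genes, and none of the 9 contained these letters. Of 32851 windows of that length in the table, 7.81% did. This says only that the letters are not in those windows.

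Of the other listed genes of the sodium channel family, Scn4a, the channel of skeletal muscle, differed by −0.37 and was not called (limma adjusted p = 0.414). Scn10a, Scn11a and Nalcn did not pass the background filter.

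Among 18 partners of the channel, all measured, 2 were lower and none higher, with a median of −0.04, where 12.1% of all genes tested were called lower. Rangrf, whose product helps bring sodium channels to the membrane, read 1.43, 1.73 and 1.70 in Ctrl and 0.94, 0.54 and 0.72 in OGT_SCKO, with no overlap. It fell by 0.88 (SE 0.15, limma adjusted p = 0.00831), although with the replicate block the adjusted p was 0.0632 and with slide as a fixed block 0.0576. Sptbn4, the beta-IV spectrin that anchors sodium channels at nodes through ankyrin, read −3.91, −3.86 and −3.69 in Ctrl and −4.32, −4.72 and −4.68 in OGT_SCKO. It fell by 0.76 (SE 0.14, limma adjusted p = 0.0127). That call ended without Ctrl pool 3 (0.0590), without OGT_SCKO pool 3 (0.0615), with slide as a fixed block (0.117), with the replicate block (0.0715) and under normexp (−0.31, 0.557). Gpd1l differed by −0.38 (adjusted p = 0.138) and Dpysl2 by 0.20 (adjusted p = 0.222), neither called.

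Of 24 genes of the node of Ranvier and the axoglial junction, 19 were measured, 4 rose, 2 fell and 13 did not pass, with a median of 0.03. Over all genes tested 11.2% rose and 12.1% fell. Gldn encodes gliomedin, the Schwann cell protein that gathers sodium channels at forming nodes. It read 3.53, 3.53 and 3.64 in Ctrl and 4.55, 4.41 and 4.54 in OGT_SCKO, a rise of 0.93 (SE 0.10, limma adjusted p = 0.00177). The groups were far apart, and the rise was 0.98 within slide 1 (adjusted p = 0.0978). Ezr, the ezrin of Schwann cell microvilli, rose by 0.73 (adjusted p = 0.00316; 0.0531 with slide as a fixed block), and its microvillar relative moesin (Msn) was also among the 4. Vcan, the nodal matrix protein versican, rose by 0.66 (adjusted p = 0.00851), but by 0.09 as the mean of its probes (adjusted p = 0.674), and its adjusted p was 0.0628 with the replicate block and 0.0808 with slide as a fixed block. Besides Sptbn4, the scaffold gene Dlg1 was lower.

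Potassium channels of nerve moved the other way from Scn2a1. Of 14 listed, 10 were measured, 4 rose, none fell and 6 did not pass, with a median of 0.39, beside 11.2% of all genes that rose and a median over all genes of −0.07. Kcnj10 encodes the inward rectifier by which glia take up potassium. It read −0.96, −0.82 and −0.54 in Ctrl and 0.24, 0.56 and 0.44 in OGT_SCKO, a rise of 1.19 (SE 0.15, limma adjusted p = 0.00316) with no overlap. Kcna6 rose by 0.84 (adjusted p = 0.00353), or by 0.52 without OGT_SCKO pool 2 (adjusted p = 0.156). Kcna1, a juxtaparanodal channel that Schwann cells also make, rose by 0.77 (adjusted p = 0.0120), with adjusted p = 0.0511 without Ctrl pool 1, 0.0538 without OGT_SCKO pool 3 and 0.0709 with slide as a fixed block. Kcnd3 rose by 0.44 (adjusted p = 0.0317), a call that ended on leaving out any 1 of the 6 pools (adjusted p from 0.0508 to 0.107), with slide as a fixed block (0.210) and with the replicate block (0.136).

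Slc8a2, a sodium-calcium exchanger, fell by 0.90 (limma adjusted p = 0.0234). That call ended without Ctrl pool 1 (0.0789), Ctrl pool 3 (0.0732) or OGT_SCKO pool 3 (0.0908), with slide as a fixed block (0.196), with the replicate block (0.0971) and under normexp (−0.46, 0.296). No set test was made on any of these lists.

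**Figure D5:**
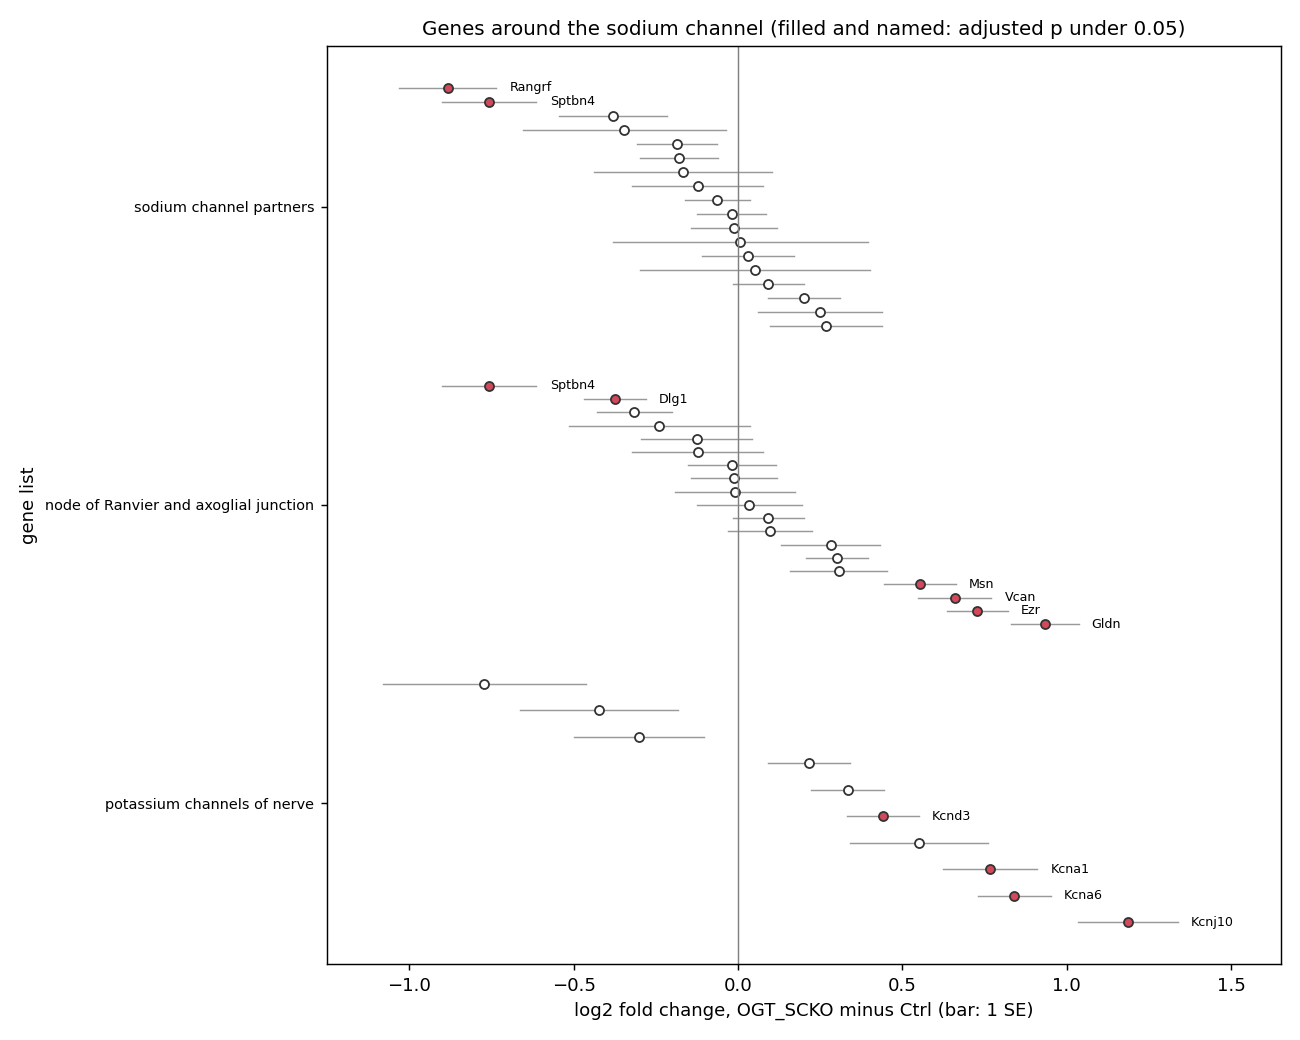
Log2 change of each measured gene in 3 lists of genes around the sodium channel, with a bar of 1 SE, filled and named where the adjusted p is under 0.05. Potassium channels hold 4 filled points above 0, up to Kcnj10 at 1.19, and sodium channel partners hold 2 below 0; Sptbn4 is in 2 lists.

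Markers of the cells in the nerve were read beside these results. The counts of calls below stand beside 12.1% of all genes tested called lower and 11.2% called higher. Of 11 markers of myelinating Schwann cells, all measured, 2 fell and none rose, and their summed level, in units of the array's 75th percentile, was 596 to 773 in Ctrl and 400 to 616 in OGT_SCKO. Of 7 markers of non-myelinating and immature Schwann cells, all measured, 3 rose, namely Gfap (3.79), Cadm1 (0.81) and Ngfr (0.77), and 2 fell, namely Cdh2 (−1.04) and Ncam1 (−0.59). Their sum was 22.5 to 28.6 in Ctrl and 23.9 to 31.9 in OGT_SCKO, and their part in the rises of Gldn, Ezr and the potassium channels was not tested. Of 13 neuronal markers, 11 were measured. Uchl1 rose (1.96) and Prph fell (−0.67), and Syt1 was well above background in every Ctrl pool and in no OGT_SCKO pool. Their sum was 13.5 to 17.3 in Ctrl and 18.4 to 22.5 in OGT_SCKO, while the median change of the 11 was −0.28. The higher sum rests on Uchl1, whose mean was 1.51 in Ctrl and 3.47 in OGT_SCKO. Among the other measured neuronal markers only Rbfox3 had a positive difference (0.55, not called). Chat and Isl1 were not well above background in any pool. The neurofilament genes were not called. Of 13 skeletal muscle markers, 9 were measured, 6 fell and none rose, with sums of 5.59 to 6.87 in Ctrl and 2.38 to 4.08 in OGT_SCKO. Myh1 and Myh2 were not well above background in any pool. The adipocyte markers summed to 1.06 to 4.41 in Ctrl and 0.202 to 0.646 in OGT_SCKO. Of the 4 called lower, 3 (Cidec, Adipoq and Retn) were not well above background in all OGT_SCKO pools. That count, and the sum that includes them, therefore support nothing. Of 6 endothelial markers, all measured, 1 fell and none rose, with sums of 15.8 to 17.8 in Ctrl and 8.91 to 11.7 in OGT_SCKO. Of 6 perineurial markers, 5 were measured, 1 fell and none rose. Their sums were 45.1 to 61.0 in Ctrl and 31.3 to 38.3 in OGT_SCKO. The sums of muscle, endothelial and perineurial markers were thus lower in every OGT_SCKO pool than in any Ctrl pool. How many sums of other genes would be apart was not counted, so this is not read as a result. Each sum is weighted to its brightest gene, here Pvalb, Vwf and Itgb4, of which Itgb4 was not called (limma adjusted p = 0.0811). The sums of fibroblast, mural, macrophage and T cell markers overlapped between the groups. The part of any of these cells in the Scn2a1 and Scn8a results was not tested.

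By Pearson's r over 6 arrays among 14206 genes, given as a description because the arrays fall into 2 groups, Scn8a A_55_P2072333 was nearest to Nono (0.999), Cenpb (0.996) and Tarsl2 (0.995). Such an r takes no account of the size of a change. Nono differed by −0.16 and was not called (limma adjusted p = 0.256), Cenpb by −0.48 and Tarsl2 by −1.52, beside −1.53 for the Scn8a probe. Scn2a1 A_55_P2106514 was nearest to Ccnq (0.999), Evi5l (0.998) and Myo1h (0.998). An r above 0.95 was reached by 373 genes for Scn8a and by 1055 for Scn2a1.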

How the data were processed

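The 6 arrays are 1-colour Agilent arrays labelled in red, per the labels. Spot intensity values, already background-subtracted, come from Agilent Feature Extraction 11.5.1.1, per the file headers, and were not normalised between arrays. The authors' deposited table of log2 values served as an alternative; how its values were made is not stated in the labels or file headers. From each array's 43020 non-control spots, outlier spots were dropped, log2 of the processed signal was scaled to the array's 75th percentile and spots of a probe were averaged. A probe counted as above background where at least 0.5 of its spots did. Of the probes, 27655 were named through their accession in RefSeq (GRCm38.p6), which updated 1711 symbols, and the rest kept the name in the files. Positions are the files' mm9 ones.

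Groups were compared with limma 3.58.1 in R 4.3.3 (lmFit, eBayes, no covariate) and the script was tested on simulated data. The text names all 9 members with their probes, Ogt, the 4 genes of smallest p in each list (some are not reported here), and the 3 genes most like each of the 2 members of smallest p. Msn and Dlg1, and the marker and neighbour genes given by name, were named after their values were seen. Members, lists and alternatives were chosen with earlier results of these data known. The number of arrays limits the precision.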

Additional observations from a re-analysis of the deposited data

How the results depend on the processing

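Gene results were recomputed under up to 18 alternatives and probe results under up to 17, 6 of which leave out 1 pool. The count of 2 sodium channel genes called lower became 1 at an adjusted p under 0.01, with slide as a fixed block and with the replicate block, 0 on slide 1 alone, and 0 to 2 on leaving out 1 pool. It was 1 with the other Scn8a probe, an alternative added after seeing the data. No alternative called a member higher. The 4 probes called, 1 of which has only a bound, became 2 under normexp and on slide 1 alone. In the surrounding lists the main counts were 9 genes higher and 4 lower. The higher count became 14 under quantile normalization and with the deposited values, 3 with slide as a fixed block, 0 on slide 1 alone, 5 with the replicate block, and 5 to 11 on leaving out 1 pool (5 without OGT_SCKO pool 3). The lower count became 2 under normexp and with no filter on dim probes, 0 with slide as a fixed block, on slide 1 alone and with the replicate block, and 1 to 7 on leaving out 1 pool. Over all genes the 4438 calls became 2722 under normexp, 2629 with no filter, 1225 with slide as a fixed block, 422 on slide 1 alone, 1475 with the replicate block, and 1982 to 5583 on leaving out 1 pool. The causes were not tested. The block, slide 1 and leave-one-out fits have fewer arrays or residual degrees of freedom. In the slide fits this cannot be told apart from an effect of slide, because only slide 1 holds both groups.

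Changes of sign were limited to members that were not called and to Scn8a where the other probe was taken. Scn7a was 0.0801 under normexp, 0.0464 with slide as a fixed block and on slide 1 alone (with either set of kept probes), and −0.396 to 0.0820 on leaving out 1 pool. Scn8a A_55_P2057132 was 0.00944 with median scaling, 0.0243 under normexp and −0.143 to 0.0486 on leaving out 1 pool. Scn8a as a gene was −1.77 to 0.00864 and Scn4b −0.0382 to 0.220 on leaving out 1 pool.

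Replicate numbers were not taken as pairs: deviations from the group means correlated at −0.27, −0.53 and 0.06 between same-numbered pools. The correlation of arrays on a slide was −0.14. The median change over all genes was −0.07 in the main scaling, −0.01 with quantile normalization and −0.04 with median scaling. Signal over background limits Scn3a and Scn9a, which have no value here, and Scn2a1 A_51_P127738, which has a bound.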
